A study of Drosophila melanogaster with 120 samples.

Results

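Line P07 was 1 of 15 hemiclonal lines of Drosophila melanogaster, and its adults were measured as 4 samples of males and 4 of females. These 8 of 120 arrays were taken by the line named in their labels, and were compared with the arrays of the other 14 lines, 56 of males and 56 of females. A hemiclonal line carries a single haploid genome drawn from the outbred base population LHM and kept intact by crosses to double-X clone-generator females. Every fly of P07, male or female, therefore shared that haplotype, and its remaining chromosomes were a random draw from LHM. Males were bred from double-X LHM mothers, so their only X was that of the line and their Y was not. Females had ordinary LHM mothers and carried the line's X beside an X of LHM. Chromosome 4 is not part of the cloned haplotype. All lines were treated alike, and no line was an untreated control. Flies were collected at Day 10 in groups of 16, spent 24 h from Day 12 with LHM testers of the opposite sex in yeasted vials, and were separated from them for 20 h more. From each vial 6 flies were drawn, kept 4 h after sorting, and frozen as whole flies at Day 14, after 4 days as adults. The fitness class of P07 is not given in the labels and was not used here.

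Within a population, individuals differ in the amount of RNA made from a gene because they carry different alleles at or near it, or different alleles of its regulators. In a hemiclonal line such differences of 1 haplotype are repeated in every fly, and males and females express the same haplotype. In males the genes of the X are read from that haplotype alone, whereas in females, and for autosomal genes in both sexes, a second and variable copy is read as well.

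Each value is a log2 expression level of a probe set, called a transcript here, made by the authors with RMA, and 1 unit is a 2-fold step. The P07 difference is the mean of the 4 P07 arrays minus the average of the means of the 14 other lines, within a sex, and was tested with limma on 18769 transcripts with an FDR of 0.001. This test asks whether P07 differed from the average line by more than replicates differed within lines. That scatter was pooled over all 15 lines, so an SE is not that of the P07 arrays alone. Whether P07 lay beyond the spread of the lines was asked separately, over the 15 line means. The sex labels held in all P07 arrays, since the mean level of 6 female genes (yolk proteins, eggshell proteins and osk, the oskar gene of the germ line) ranged from 13.98 to 14.17 in its female arrays and from 5.84 to 7.06 in its male arrays. In the male arrays of the other lines that mean ranged from 4.70 to 7.78. The 4 P07 male arrays each correlated best with their own line, as did 55 of the 56 other male arrays, but only 2 of the 4 P07 female arrays did (42 of 56 in the other lines). P07 females 1 and 3 were closer to lines P15 and H10, and the female calls were also made without them, from the other 2 females of the line.

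In P07 males 431 transcripts (2.3%) passed the test, 236 higher (1.26%) and 195 lower (1.04%), of which 54 (0.288%) differed by 2-fold or more. In P07 females 100 transcripts (0.533%) passed, 22 higher (0.117%) and 78 lower (0.416%), and 13 (0.0693%) differed by 2-fold or more. Both counts stood at place 8 when each of the 15 lines was compared with the rest in the same way, since the other lines gave 271 to 1496 calls in males and 59 to 202 in females. Called transcripts were not always those in which P07 was the outermost line. Its mean was the highest of 15 for 151 of the 236 higher and the lowest for 105 of the 195 lower transcripts in males, and for 14 of 22 and 64 of 78 in females. Without 1 of its male arrays P07 had 241 to 278 male calls, and without 1 of its female arrays 52 to 67 female calls. With females 1 and 3 both left out there were 29 female calls, 23 of them among the 100. Of 38 female calls of genes examined singly, all kept their sign and 14 were still called, among them CG34251 (1.71, adjusted p = 0.000764), GstE5 (-1.28, adjusted p = 1.62e-07), GstE6 (-1.08, adjusted p = 6.86e-10), GstE7 (-0.82, adjusted p = 9.62e-07), hpRNA:CR33940 (-0.80, adjusted p = 8.26e-08), CG1304 (-1.30, adjusted p = 7.05e-05), CG7352 (-1.05, adjusted p = 1.36e-05), Mal-B1 (-1.0, adjusted p = 1.38e-05) and Syn (-0.89, adjusted p = 0.00055). The other 24 were no longer called, Cyp4e3 (1.15, adjusted p = 0.00502), GstE11 (0.52, adjusted p = 0.0196), CG6839 (-0.76, adjusted p = 0.0216), CG14456 (-0.88, adjusted p = 0.00809), CG13101 (0.69, adjusted p = 0.00604) and CG4404 (-0.49, adjusted p = 0.00339) among them.

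Differences called in both sexes were few and almost always had the same sign. P07 was higher in both sexes for 7 transcripts and lower in both for 22, together 29 (0.155%), and opposite in the sexes for 1 (0.00533%). Of the male calls 67.3% had the same sign in females, against 53.4% of all transcripts. A further 71 transcripts were called in males only and 12 in females only with a called difference between the sexes, the departure described later.

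**Figure D1:**
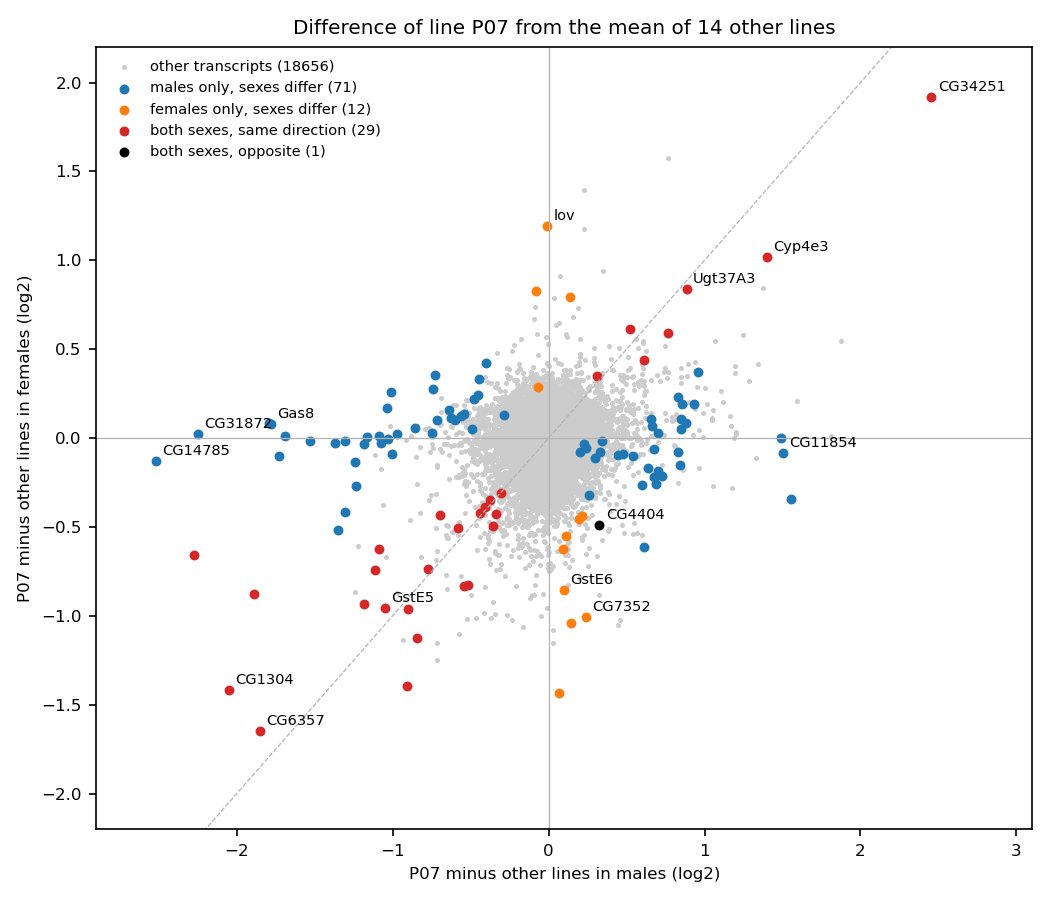
Each point is a transcript, placed by the P07 difference from the mean of the 14 other lines in males (x axis, log2) and in females (y axis, log2), with equal differences on the dashed line. Red points are the 29 called in both sexes in the same direction, blue and orange points the 71 and 12 called in males only and in females only with a called departure, black is CG4404, and grey points are the others.

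The transcripts that P07 had at a higher level in both sexes were led by CG34251 and by genes of detoxification, the oxidation and conjugation of foreign and internal compounds. CG34251 had values of 6.74, 6.78, 7.17 and 6.98 in the 4 P07 male arrays, while the other 56 ranged from 3.60 through a median of 4.28 to 7.11. In P07 females it was at 7.38, 6.61, 6.93 and 6.86, against 3.96, 4.96 and 7.25 for the lowest, median and highest of the other female arrays. In each sex the only other arrays that reached the P07 values, 3 of males and 4 of females, belonged to 1 other line. The P07 difference was 2.46 ± 0.22 (SE) in males and 1.92 ± 0.22 in females (adjusted p = 1.47e-12 and 3.69e-08, limma).

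Cyp4e3, a cytochrome P450 gene, had 9.94, 9.40, 9.40 and 9.17 in P07 males and 8.20, 8.73, 8.41 and 8.43 in P07 females. The other arrays ranged from 7.13 to 9.28 (median 8.03) in males and from 6.54 to 8.64 (median 7.32) in females. Its P07 mean was the highest of 15 in each sex, and 1 of the 56 other male arrays and 6 of the 56 other female arrays fell within the P07 range. The differences were 1.40 ± 0.18 (adjusted p = 1.63e-07) and 1.02 ± 0.17 (adjusted p = 7.53e-05), the latter no longer called without female 2 (adjusted p = 0.00383) or female 4 (adjusted p = 0.00118).

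Ugt37A3, which encodes a UDP-glycosyltransferase, stood clear of all other male arrays. Its values were 7.17, 7.31, 6.63 and 6.72 in P07 males, against 5.60 to 6.60 (median 6.10) in the others, and 6.75, 6.29, 6.78 and 6.00 in P07 females, against 5.02 to 6.43 (median 5.55). The male arrays of P07 all lay above the other 56, and in females 5 arrays of 2 other lines reached them. The differences were 0.89 ± 0.11 in males and 0.84 ± 0.11 in females (adjusted p = 2.14e-08 and 1.15e-06), the latter 0.53 without females 1 and 3 (adjusted p = 0.0418). GstE11, a glutathione S-transferase gene, was higher by 0.77 ± 0.13 in males and 0.59 ± 0.09 in females, with the highest and the second highest line mean. CG31075 followed with 0.52 ± 0.08 and 0.61 ± 0.10, the female call being lost without female 4 (adjusted p = 0.00333). The other 2 were a probe set of ND-ACP, the acyl carrier protein of the mitochondrial respiratory chain, with 0.31 in males and 0.35 in females, and 1 probe set with no annotated gene.

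Among the 22 transcripts lower in both sexes, P07 had the lowest mean of 15 lines in males for 13 and in females for 16, and in both for 11. GstE5, another glutathione S-transferase gene, had 8.22, 7.84, 8.20 and 7.78 in P07 males, where the other arrays ranged from 8.12 to 9.63 (median 9.12). In P07 females it had 6.86, 5.91, 6.08 and 5.73, against 6.43 to 8.02 (median 7.02). Only 2 other male arrays lay within the P07 range, but 15 other female arrays did because P07 female 1 was high. The difference was -1.05 ± 0.10 in males and -0.96 ± 0.12 in females (adjusted p = 6.26e-11 and 4.05e-07).

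A long hairpin RNA gene, hpRNA:CR33940, showed the same direction. Genes of this kind are sources of small interfering RNAs. It was at 6.26, 6.64, 6.70 and 7.06 in P07 males against 6.35 to 8.43 (median 7.82), and at 8.76, 8.45, 8.66 and 8.74 in P07 females against 8.67 to 9.87 (median 9.43). In each sex the 3 other arrays within the P07 range came from 1 line. P07 differed by -1.11 ± 0.13 in males and -0.74 ± 0.06 in females (adjusted p = 4.35e-09 and 1.48e-11). Its neighbour hpRNA:CR32207 was called lower in females (-0.52 ± 0.09, adjusted p = 0.000114), with -0.38 ± 0.14 in males (adjusted p = 0.0769).

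CG1304, on the X, illustrates a call made far from the edge of the lines. P07 males had 3.89, 4.01, 3.62 and 3.71 and P07 females 3.58, 3.94, 3.69 and 3.78, while the others ranged from 3.35 to 9.03 (median 5.56) in males and from 3.27 to 7.51 (median 5.11) in females. P07 was only the eighth highest of 15 lines in males, with 14 other male arrays below all of its own and 28 above. The differences of -2.05 ± 0.10 and -1.42 ± 0.14 (adjusted p = 7.09e-23 and 1.89e-09) therefore set P07 against an average raised by some lines. The adjacent gene Ser6, a serine protease gene, was lower in males (-1.22 ± 0.08, adjusted p = 2.06e-17), with P07 in place 10, and had -0.61 ± 0.14 in females (adjusted p = 0.00435).

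Some shared differences varied within P07 itself. CG6357 was at 6.97, 8.30, 6.83 and 9.57 in the P07 males and at 5.67, 7.75, 6.97 and 8.26 in the females, a spread close to that of all other male arrays (7.61 to 10.82, median 10.14) and female arrays (5.92 to 9.86, median 9.03). The mean differences were -1.85 ± 0.24 and -1.65 ± 0.24 (adjusted p = 8.15e-08 and 5.86e-06), and the female call was lost without female 1 (adjusted p = 0.00206) and without females 1 and 3 (-0.81, adjusted p = 0.104). CG6191 also varied in males, with 5.36, 7.04, 6.41 and 7.96, against 6.19 to 9.45 (median 8.77) in the other lines. Its differences were -1.89 ± 0.18 in males and -0.88 ± 0.16 in females (adjusted p = 3.35e-11 and 0.000309), of which the female call failed without female 1, 2 or 4 (adjusted p = 0.0063, 0.00406 and 0.00722).

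In other shared transcripts the P07 arrays were tight. CG6839 had 6.59, 6.59, 6.63 and 6.72 in P07 males (others 6.34 to 8.78, median 7.52) and 6.99, 7.18, 6.55 and 7.16 in P07 females (others 7.19 to 9.24, median 7.82). All 4 female arrays lay below the other 56, and the differences were -0.90 ± 0.16 and -0.96 ± 0.14 (adjusted p = 7.88e-05 and 4.97e-06), the male call being lost without male 1 or 2 (adjusted p = 0.00114 and 0.00134). Syn, the gene of the synaptic vesicle protein synapsin, was named after its values were seen. It had 6.44, 6.38, 6.4 and 6.19 in P07 females, all below the 6.71 to 8.05 (median 7.16) of the others, and 8.98, 8.48, 8.74 and 8.60 in P07 males against 8.62 to 9.66 (median 9.21). Its differences were -0.83 ± 0.11 and -0.52 ± 0.09 (adjusted p = 1.17e-06 and 3.71e-05). CG8745, CG8661, CG13313 and ATbp were also lower in both sexes, with differences from -1.40 to -0.63. Of these, CG8745 lost its female call without female 4 (adjusted p = 0.0013), CG8661 without female 3 (adjusted p = 0.00386), and CG13313 in either sex without any 1 of male 2, male 3, female 2, female 3 or female 4 (adjusted p from 0.00171 to 0.0115).

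**Figure D2:**
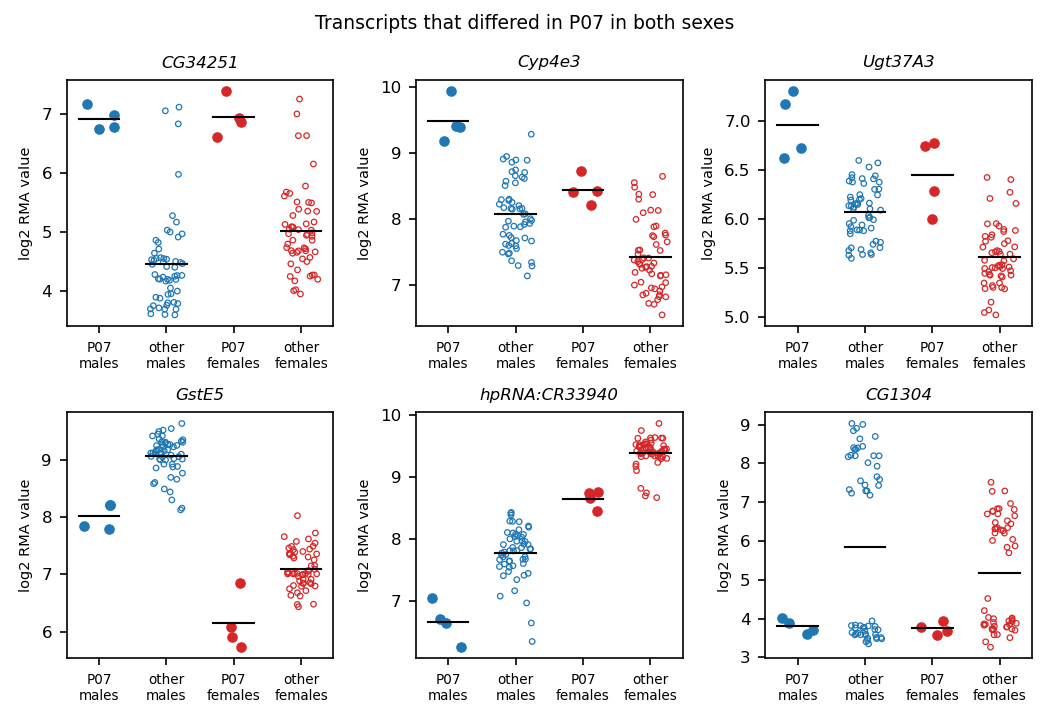
Log2 RMA values of 6 transcripts called in both sexes, with 1 point per array, filled for P07 (4 per sex) and open for the other 14 lines (56 per sex), males in blue and females in red. Black lines are means over arrays. P07 is high for CG34251, Cyp4e3 and Ugt37A3 and low for GstE5 and hpRNA:CR33940, whereas for CG1304 many arrays of other lines lie at or below it.

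The single transcript with opposite calls was CG4404, on the X, named because it was alone. In P07 males it was at 9.88, 9.81, 9.90 and 9.85, against 9.18 to 10.16 (median 9.47), and in P07 females at 10.11, 10.16, 10.36 and 10.31, against 10.13 to 11.15 (median 10.81). P07 was higher in males by 0.33 ± 0.06 (adjusted p = 0.000292) as the fourth highest line and lower in females (-0.49 ± 0.07, adjusted p = 3.78e-06) as the lowest.

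Among the transcripts called in P07 males, genes with male-biased expression made up more of the lower than of the higher side. Of the 195 male calls lower in P07, 119 (61%) were transcripts in which the other lines had at least a 2-fold male excess, as were 85 (36%) of the 236 higher calls and 19.4% of all transcripts. Seminal fluid proteins, made in the male accessory glands and passed to females at mating, gave the most lower calls of any list in males. Of 36 such genes measured, 8 were lower in P07 males and none higher (all transcripts, 1.04% lower and 1.26% higher). Their median difference was -0.12 against 0.01 for all transcripts, 27 of the 36 lay below 0, and P07 had the lowest mean of 15 lines for 12 of them. No member was called in P07 females. The Mst57D genes among these 36 were moved to the list after values were seen.

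Acp36DE, needed for the storage of sperm in the female, had 13.57, 13.75, 13.61 and 13.76 in P07 males, and the other arrays ranged from 13.73 to 14.36 (median 14.14). The P07 arrays lay at the lower edge and overlapped the others only narrowly. The difference was -0.44 ± 0.06 (adjusted p = 8.36e-08). Acp76A, a serpin of the seminal fluid, had 12.05, 12.44, 12.21 and 12.46 against 12.14 to 13.48 (median 13.01) and differed by -0.67 ± 0.11 (adjusted p = 9.43e-06). Mst57Dc, a male-specific accessory gland gene, had 13.02, 13.08, 12.97 and 13.10 against 13.09 to 13.91 (median 13.57), so that 3 of its 4 values lay below every other array, and differed by -0.51 ± 0.06 (adjusted p = 9.12e-09).

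The other called members were Acp26Aa (ovulin, which raises ovulation) with -0.35 ± 0.06, Acp62F (a protease inhibitor) with -0.44 ± 0.08, Acp53C14c with -0.48 ± 0.09, the serpin gene Spn28F with -0.45 ± 0.09 and Obp56i with -0.45 ± 0.08. All but Acp76A, Mst57Dc and Acp53C14c were named after their values were seen. Mst57Dc was named as a called member of the list, but it was moved to the list after values were seen. Its place in the count of calls therefore rests on that change. SP, the sex peptide gene, had -0.12 ± 0.06 (adjusted p = 0.269) and Dup99B 0.00 ± 0.05 (adjusted p = 0.995), neither of them called. The count rested on single arrays, since the list had 3 calls without male 1, 6 without male 3 and 4 without male 4, while 26 to 29 members lay below 0. Acp53C14c was among those lost without male 1 or 4 (adjusted p = 0.00297 and 0.00572). The mean of the 6 female genes, a measure of RNA from females or eggs, had a median of 6.15 in P07 males and 5.47 in the other male arrays, and its part in these differences was not tested. The mean of 5 male marker genes (SP, Acp26Aa, Acp36DE, ocn and Mst84Db) had a median of 13.37 in P07 males and 13.56 in the other male arrays. Its 2 testis genes, ocn and Mst84Db, had -0.03 and 0.02 (adjusted p = 0.847 and 0.896). Of 52 spermatogenesis genes, however, only 10 lay above 0 in P07 males, with a median of -0.09. In whole flies, fewer gland cells and less RNA per cell cannot be told apart.

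**Figure D3:**
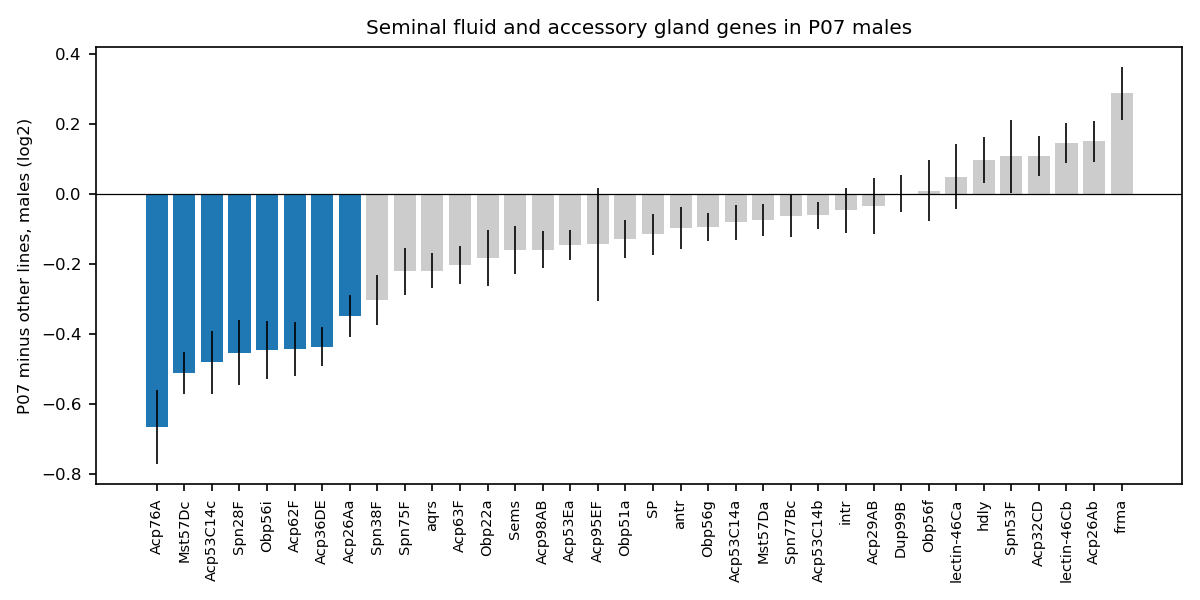
Bars give the P07 difference in males (log2, with SE) for 36 genes of seminal fluid and accessory glands, ordered by size, with the 8 called at an FDR of 0.001 in blue. Of these 36, 27 lie below 0, and all 8 called members lie between -0.35 and -0.67.

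A run of lipase genes on chromosome arm 2L was lower in the same way. CG31872 had 9.14, 7.50, 8.56 and 8.25 in P07 males, where the other arrays ranged from 7.84 to 11.92 (median 10.71), and only 6 of those 56 lay within the P07 range. In P07 females it was at 3.02, 2.74, 2.71 and 2.90, as in the other female arrays (2.50 to 3.20). The male difference was -2.25 ± 0.25 (adjusted p = 1.31e-09), and its neighbours CG18284 and CG17097 had -0.38 ± 0.07 and -0.41 ± 0.06 (adjusted p = 0.000151 and 3.49e-06). On 2R the adjacent genes CG11112 and CG11113 differed by -0.97 ± 0.09 and -0.72 ± 0.10, each as the lowest of 15 lines. CG33259, with 6.72, 6.18, 6.52 and 6.48 against 6.39 to 9.48 (median 8.31), was lower by a difference of -1.69 ± 0.16 (adjusted p = 7.02e-12).

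Genes of spermatogenesis gave a smaller count, with 3 of 52 lower and 1 higher in P07 males (all transcripts, 1.04% and 1.26%) and a median difference of -0.09, though 42 of the 52 lay below 0. Gas8, which encodes a subunit of the dynein regulatory complex of the sperm tail, was X-linked and the lowest of 15 lines. Its P07 male values were 4.62, 4.39, 4.76 and 4.91, against 4.52 to 7.74 (median 7.0), and 4 arrays of 3 other lines fell within that range. P07 females had 3.61, 3.81, 3.79 and 3.80, within the 3.28 to 4.01 of the other females. The male difference was -1.78 ± 0.11 (adjusted p = 1e-18). Prosalpha4T2, a proteasome subunit of the testis, differed by -0.40 ± 0.07 (adjusted p = 3.73e-05) and sa, a TATA-binding-protein-associated factor of the testis, by -0.48 ± 0.09 (adjusted p = 0.000165), the latter lost without male 2, 3 or 4 (adjusted p = 0.0021, 0.00404 and 0.00253). Sdic3, one of a tandem group of near-identical sperm dynein genes whose copies may share probes, was the higher one with 1.01 ± 0.14 (adjusted p = 1.01e-06), as the seventh highest line. All 7 Y-linked genes measured lay below 0 in males (median -0.11) and none was called. Their Y was not that of the line. Some were near the bottom of the scale, where a sign says little, as kl-3 had 3.23 in P07 males and 3.23 in P07 females, and kl-5 3.18 and 2.94. ARY was above it in males, with 5.85 and 3.09.

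The male difference of greatest size was that of CG14785, an X-linked transcript that fell into separate levels across lines. P07 males had 5.11, 5.36, 5.37 and 5.57, and the other arrays ranged from 5.22 to 9.14 with a median of 8.47. Of the 56 other arrays, 11 from 3 lines shared the P07 level and 45 lay above it. In P07 females it was at 5.95, 5.77, 6.14 and 6.21, inside the 5.74 to 6.57 (median 6.15) of the other females. The difference was -2.52 ± 0.12 in males (adjusted p = 1.14e-22) and -0.13 ± 0.08 in females (adjusted p = 0.442). CG15369, also on the X, was at 4.71, 4.60, 4.64 and 4.55 in P07 males with the others from 4.13 to 11.86, and its median of 4.89 shows that the mean difference of -1.79 ± 0.11 (adjusted p = 2.28e-18) came from a few high lines. CanA-14F, a calcineurin subunit gene, FucTC, a fucosyltransferase gene, and Obp8a were X-linked genes of the same direction, with -1.35 ± 0.09, -1.23 ± 0.09 and -1.03 ± 0.06, and P07 in place 13 or 14. The other probe set of CanA-14F had -0.26 and was not called (adjusted p = 0.0881). A probe set of nej, which encodes the CREB-binding protein, differed by -1.31 ± 0.14 with P07 lowest, whereas the other probe set of the gene had -0.10 (adjusted p = 0.849).

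On the higher side in males, detoxification genes appeared again. Among 81 cytochrome P450 genes 7 were higher and 1 lower, 62 lay above 0 and the median was 0.14 (all transcripts, 1.26% higher, 1.04% lower and a median of 0.01). Beside Cyp4e3 these were Cyp6t1 (0.83 ± 0.10, adjusted p = 2.59e-08), Cyp311a1 (0.74 ± 0.13), Cyp4d8 (0.61 ± 0.08), Cyp9h1 (0.48 ± 0.10), Cyp9c1 (0.47 ± 0.08) and Cyp6a13 (0.46 ± 0.08), and Cyp28c1 was the lower one (-0.50 ± 0.08). Cyp6t1 had 8.64, 8.63, 8.37 and 8.51 against 3.83 to 8.91 (median 8.21), with P07 in place 4, so that part of its difference lay in lines with very low values. Without 1 P07 male the P450 calls numbered 5 to 7, and 5 remained without male 3. In females only Cyp4e3 was called, and 35 of the 81 lay above 0. Of 35 UDP-glycosyltransferase genes Ugt37A3 and Ugt49B1 were higher in males, the latter by 0.48 ± 0.07 (adjusted p = 5.89e-06).

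Other male differences stood apart from every other line's arrays. In 20 transcripts (0.107%) the 4 P07 male arrays did not overlap the other 56, 14 above and 6 below. The largest of them was vanin-like, an X-linked gene of the family of pantetheinases, with 9.36, 9.23, 8.80 and 8.68 against 5.84 to 8.35 (median 7.15), a difference of 1.88 ± 0.17 (adjusted p = 1.68e-12). In females it varied from 7.12 to 9.33 over the 4 P07 arrays and was not called (0.55 ± 0.34, adjusted p = 0.435). Aldh7A1, an aldehyde dehydrogenase gene, had 10.46, 10.70, 10.61 and 10.59 against 9.45 to 10.41 (median 9.83) and differed by 0.75 ± 0.08 (adjusted p = 8.94e-10). In P07 females it was higher as well, by 0.40, which just missed the threshold (adjusted p = 0.00121). Crz, which encodes the neuropeptide corazonin, had 6.68, 6.83, 6.78 and 6.74 against 5.91 to 6.63 (median 6.30) and differed by 0.45 ± 0.06 (adjusted p = 6.75e-07). These 3 were chosen after their values were seen, and none had a called departure (adjusted p = 0.03, 0.0584 and 0.0117, in the order given).

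CG11854 was the leading autosomal gene called higher in males with a called departure, after CG43085. It had 7.67, 7.34, 8.40 and 7.32 in P07 males, with 5 of the other 56 arrays (4.94 to 8.08, median 6.06) inside that range and none above, and 4.11, 3.86, 4.11 and 4.07 in P07 females, as in the others (3.78 to 4.52). The difference was 1.5 ± 0.22 in males (adjusted p = 1.73e-06) and -0.09 ± 0.09 in females. CG43085 differed by 1.56 ± 0.24 in males (adjusted p = 3.6e-06), as the third highest line, and its departure was lost without male 1, 3 or 4 or female 2 or 4 (adjusted p from 0.00101 to 0.00519). The kainate-type glutamate receptor gene Grik (0.84 ± 0.11) and the X-linked gene Glos (0.88 ± 0.12, P07 highest) were further members. CG40485, on the X, had 1.49 ± 0.12 in 1 probe set and -0.02 in its other, which was not called.

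In P07 females the differences were mostly downward, and glutathione S-transferases formed the largest group. These enzymes join glutathione to reactive compounds, and many lie in tandem in the Delta cluster of 3R and the Epsilon cluster of 2R. Of 34 measured, 7 were lower and 1 higher in females (all transcripts, 0.416% and 0.117%), 8 of the 34 lay above 0 and the median was -0.08, against 0.02 for all transcripts. In males 1 was lower and 2 were higher. GstE5, GstE6 and GstE7, which follow each other on 2R, were all called lower in females, but only GstE5 was called lower in males. The departure was called for GstE6 and not for GstE7 (0.59, adjusted p = 0.00683).

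GstE6 had 11.07, 10.16, 10.60 and 10.60 in P07 females, while the other female arrays ranged from 11.04 to 11.89 (median 11.49). Only 1 of those 56 reached the highest P07 value. In P07 males it was at 11.49, 11.58, 11.72 and 11.37, inside the range of the other male arrays (10.91 to 11.78, median 11.49). P07 differed by -0.85 ± 0.08 in females (adjusted p = 5.77e-10) and 0.10 ± 0.07 in males (adjusted p = 0.476). GstE7 had 8.63, 8.10, 8.17 and 8.04 in P07 females against 8.43 to 9.28 (median 8.91) and differed by -0.65 ± 0.08 (adjusted p = 1.5e-07), with -0.06 ± 0.12 in males.

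In the Delta cluster the neighbours GstD1 and GstD9 were lower in females by differences of -0.44 ± 0.08 and -0.41 ± 0.07 (adjusted p = 0.000311 and 8.25e-05). GstD1 had 12.88, 12.91, 13.001 and 13.31 in P07 females (others 12.55 to 13.81, median 13.58) and 13.80, 13.26, 13.52 and 13.19 in P07 males (others 12.97 to 13.64, median 13.19). P07 had the highest mean of it in males, where the difference of 0.22 ± 0.07 was not called (adjusted p = 0.0506), and only the third lowest in females, where the call failed without female 1, 2 or 3 (adjusted p = 0.00919, 0.0106 and 0.00426). GstZ1 and GstE14 were the remaining lower genes (-0.45 ± 0.06 and -0.58 ± 0.11), and GstE12 the second higher gene in males (0.19 ± 0.04). Calls of the family in females fell from 8 to 5 or 6 without 1 P07 female, 5 of them without female 3, and to 4 without females 1 and 3. Whether these paralogs share probes was not tested.

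**Figure D4:**
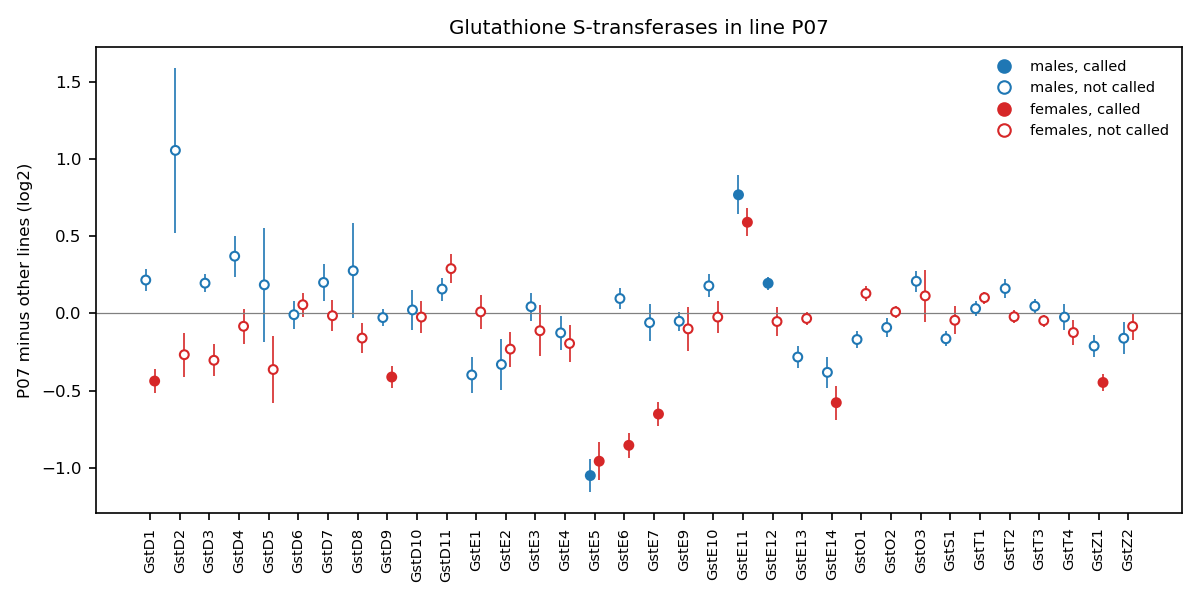
P07 differences (log2, with SE) of 34 glutathione S-transferase genes in males (blue) and females (red), filled where called at an FDR of 0.001. GstE5 is called lower in both sexes and GstE11 higher in both. GstE6, GstE7, GstD1, GstD9, GstZ1 and GstE14 are called lower in females and not called in males. Of these, only GstE6 and GstD1 had a called departure.

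CG7352 and CG14456 were further transcripts called lower in females with a called departure and no call in males. CG7352 had 5.47, 5.18, 5.45 and 5.58 in P07 females against 5.47 to 7.22 (median 6.49), at the bottom of the range, and differed by -1.01 ± 0.10 (adjusted p = 1.89e-09). In males P07 was the second highest line for it (0.24 ± 0.09, adjusted p = 0.0914). CG14456 had 5.67, 5.67, 5.63 and 6.28 against 5.24 to 7.86 (median 6.95) and differed by -1.04 ± 0.14 (adjusted p = 6.52e-07). Mal-B1, a maltase gene, had 7.36, 6.94, 7.29 and 7.31 against 7.08 to 9.19 (median 8.18) and was lower by a difference of -0.90 ± 0.10 (adjusted p = 2.21e-08). CG31751 lay below every other female array with 7.91, 7.78, 7.86 and 7.90 against 8.07 to 8.67 (median 8.32), a difference of -0.48 ± 0.05 (adjusted p = 3.69e-08), and was named after its values were seen. Such separation held for 9 transcripts in females (0.048%). Neither Mal-B1 nor CG31751 had a called departure (0.78 and 0.37, adjusted p = 0.102 and 0.00635).

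Few transcripts were higher in P07 females alone. The gene lov, which encodes a BTB-domain regulator of behaviour, had 6.88, 6.07, 7.13 and 6.01 in P07 females and 4.50 to 6.39 (median 5.36) in the other female arrays, of which 3 from 2 lines reached the P07 range. In males it was at 5.55, 5.46, 5.31 and 5.66, within 5.03 to 6.05. The female difference was 1.19 ± 0.17 (adjusted p = 6.01e-06, 0.00116 without female 3, and 0.0758 with 0.71 without females 1 and 3), and that in males -0.01 ± 0.11. CG13101 had 0.79 ± 0.10 in females (adjusted p = 6.51e-07) and 0.14 ± 0.08 in males (adjusted p = 0.326). On chromosome 4, which the haplotype does not include, fuss, a homologue of the Ski and Sno proto-oncogenes, was lower in females (-0.62 ± 0.11, adjusted p = 0.000218), a call lost without female 1, 2 or 4 (adjusted p = 0.00145, 0.00694 and 0.00473).

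Among lists of eye, nervous system and muscle genes 1 member was called in P07 females, although most members lay below 0. Of all transcripts 0.117% were called higher and 0.416% lower in females, and lists this small hold few or no calls at such shares. In females 11076 of all 18769 transcripts lay above 0. Of 17 eye genes 15 lay below 0 in females with a median of -0.27, and P07 had the lowest mean of 15 lines for 11, against 1235 of all 18769 transcripts (6.58%). Only santa-maria, a scavenger receptor used in the making of visual pigment, was called lower. Its values were 6.91, 7.02, 7.37 and 6.87 in P07 females against 6.93 to 8.0 (median 7.49), a difference of -0.45 ± 0.08 (adjusted p = 0.000296) that was lost without female 1, 2 or 4 (adjusted p = 0.00786, 0.00453 and 0.013). In males inaE, a diacylglycerol lipase gene, was the 1 eye gene called, with 1.11 ± 0.10 in 1 probe set (adjusted p = 1.86e-12) and no call in its 4 others. The shares of all transcripts called in males were 1.26% higher and 1.04% lower. The arrestin genes Arr2 and Arr1 had -0.41 ± 0.09 and -0.35 ± 0.11 (adjusted p = 0.00613 and 0.0626). Of 28 nervous system genes 6 lay above 0 (median -0.13) and P07 was lowest for 11, and of 17 muscle genes 1 lay above 0 (median -0.16). No member of the nervous system and muscle lists was called. These lists did not hold Syn, called lower in both sexes, or Crz and Grik, called higher in males. Other lists without a call had female medians in the same range, -0.22 for antimicrobial peptides and bomanins, -0.21 for yolk and eggshell genes and -0.19 for genes of early embryo patterning. In males the medians of the eye, nervous system and muscle lists were 0.00, -0.03 and -0.06. Of the eye genes 15 also lay below 0 without any 1 P07 female and without females 1 and 3. In females the median over all transcripts was 0.02, the highest among the 15 lines, and P07 had the highest mean of 15 lines for 12.6% of all transcripts and the highest or lowest for 19.2%.

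The departure of P07 from the usual sex difference was tested as the male minus female difference in P07 against its average in the other lines. It passed for 96 transcripts (0.511%), with 50 larger (0.266%) and 46 smaller (0.245%) in P07, again place 8 of 15 lines. Of the 46 smaller ones 38 were called in males alone and 30 had a 2-fold male excess in the other lines. For 33 of the 46 and 37 of the 50 the sex difference of P07 lay outside the range of the other 14 lines. Without 1 P07 array the count was 60 to 91, with the lowest without male 1, and without females 1 and 3 it was 54. The balance of directions moved with the arrays, as the larger and smaller departures numbered 27 and 33 without male 1. In lov the departure was -0.72 without females 1 and 3 (adjusted p = 0.0748).

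The male excess of CG14785 was absent in P07, where males minus females came to -0.66 against an average of 1.73 in the other lines (departure -2.39 ± 0.15, adjusted p = 8.24e-25). In lines P22, P48 and P50 every male array also lay below every female array of the line. The absence was therefore not particular to P07. For CG31872 the male excess was 5.52 against 7.79 (-2.27 ± 0.27, adjusted p = 2.91e-10), and for Gas8 it was 0.92 against 2.78 (-1.86 ± 0.13, adjusted p = 5.71e-22). The male excess of these genes was thus smaller or absent through their low male level. In females Gas8 and CG31872 were near the bottom of the scale, where a lower level could not show. Their departures therefore restate the male difference. Among larger departures CG11854 had 3.64 against 2.05 (1.59 ± 0.24, adjusted p = 1.69e-06). GstE6, at nearly equal level in the sexes of other lines (-0.02), had a male excess of 0.93 in P07 (0.95 ± 0.11, adjusted p = 8.5e-11), and CG7352 had 2.35 against 1.10 (1.25 ± 0.14, adjusted p = 4.11e-11). In lov the sign turned, with -1.03 in P07 and 0.17 in the others (-1.20 ± 0.21, adjusted p = 3.81e-05). Spn28F and Acp62F were the 2 seminal fluid genes with a called departure, -0.69 ± 0.14 and -0.78 (adjusted p = 0.000565 and 2.44e-05).

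**Figure D5:**
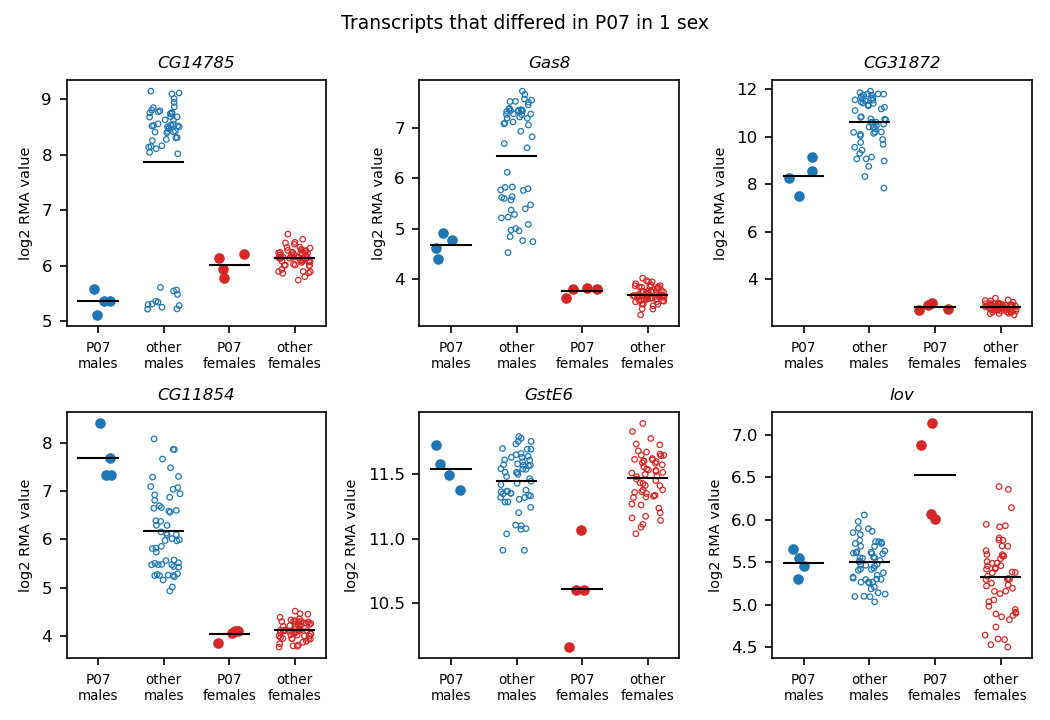
Log2 RMA values of 6 transcripts called in 1 sex with a called departure, with 1 point per array, filled for P07 (4 per sex) and open for the other 14 lines (56 per sex), males in blue and females in red, and black lines at the means. Males of P07 are low for CG14785, Gas8 and CG31872 and high for CG11854, whereas females are low for GstE6 and high for lov.

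When P07 was set against the spread of the 15 line means, few transcripts stood out at an FDR of 0.05. In males 3 did (0.016%), with 747 at an unadjusted p under 0.05 (3.98%), and in females 0 did (0%), with 1594 at an unadjusted p under 0.05 (8.49%). For the departure there were 2 (0.0107%). The female count was 5 without female 1, 9 without female 3, 2 without line P18 or P56 and 1 without line P48. With females 1 and 3 both left out, chosen after seeing the data, it was 691, 535 higher and 156 lower. That fit set a mean of 2 arrays against means of 4, so the female count is not stable. Named after their values were seen, the male ones were BG642312, Efa6 and 1 probe set with no annotated gene. BG642312 had 13.58, 13.64, 13.66 and 13.63 in P07 males, all below the 13.91 to 14.32 (median 14.16) of the others, a difference of -0.53 ± 0.07 over line means (adjusted p = 0.0177). The unnamed probe set had 6.65, 6.59, 6.67 and 6.63 against 7.53 to 8.60 (median 8.19), a difference of -1.53 ± 0.19 (adjusted p = 0.0103), and in females 9.28 to 9.46, inside the 9.23 to 9.83 of the others.

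Efa6, an exchange factor gene for the small GTPase Arf6, was less uniform. Its P07 male values were 9.30, 8.54, 9.33 and 8.63, so that males 1 and 3 lay above all other arrays (7.91 to 8.68, median 8.25) and males 2 and 4 within their range. The difference was 0.69 ± 0.10 over line means (adjusted p = 0.0432), and 2 other probe sets of the gene had 0.08 and 0.08. Without male 1 or male 3 no higher transcript, and so not Efa6, was beyond the spread in males. The same held without any 1 of lines H09, H10, H13, H14, P13, P15, P18, P26, P48 and P50. The unnamed probe set and Efa6 also made up the 2 departures beyond the spread (-1.51 and 0.95, adjusted p = 0.0128 and 0.0409). No larger departure, and so not that of Efa6, was beyond the spread without male 1, male 3 or female 2. The same held without any 1 of lines H09, H10, H13, P13, P15, P22, P26, P48 and P56. Of the transcripts described above, Ugt37A3, CG34251 and GstE5 had adjusted p = 0.529, 0.776 and 0.739 in males on this test.

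By chromosome, male calls were most frequent on the X. Of 2188 X-linked transcripts 108 (4.94%) were called in P07 males, against 272 of 11267 (2.41%) on the major autosome arms, where the arms ranged from 2.05% to 2.63%. In females the X had 12 calls (0.548%) against 73 (0.648%), and the departure 26 (1.19%) against 54 (0.479%). The ratio of the X to the autosomal share in males was 2.04 in P07, place 8 of 15, with 1.17 to 2.95 in the other lines, and so was not particular to it. In females it was 0.846, place 14. On chromosome 4 none of 82 transcripts was called in males and 1 (fuss) in females.

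Called genes were at times neighbours. Of 730 positions next to a gene called in males 36 (4.93%) held a called gene, against 3.07% of all placed genes, and 26 of the 36 had the same sign. A pair of called neighbours counts from each side, so these are not numbers of separate genes. In females 10 of 160 such positions (6.25%) held a called gene, against 0.673%, all with the same sign. Among these neighbours were GstE5, GstE6 and GstE7, GstD9 and GstD1, and the hairpin RNA genes hpRNA:CR32207 and hpRNA:CR33940. In males GILT3 and GILT2, genes of lysosomal thiol reductases, were both higher (0.70 ± 0.06 and 0.57 ± 0.09), as were CG6733 and CG6738 (0.94 ± 0.13 and 0.85 ± 0.10). Where a gene called in males had further probe sets, 50 of those 66 had the same sign and 8 were also called, and in females 9 of 11 and 0.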

How the data were processed

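The authors processed the 120 arrays with RMA in the affy package (versions not given in the sources used here) and deposited log2 values for 18952 probe sets. RMA removes background, brings arrays to a common distribution and combines the probes of a set. Median log2 values nonetheless ranged from 5.69 to 5.76 in P07 females and from 6.35 to 6.42 in P07 males, and comparisons between lines were made within a sex. The 183 control probe sets were left out. Genes were named from the platform annotation, by Entrez ID for 13544 probe sets, and placed on arms with RefSeq names. No sequence was used. A gene was represented by its probe set with the highest mean.

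Line, sex and replicate came from the labels. Each sex was fitted in limma 3.58.1 (R 4.3.3) with 15 line means, and P07 was contrasted with the average of the other 14. The departure used 30 group means over 120 arrays. The Benjamini-Hochberg adjustment ran over 18769 transcripts, with an FDR of 0.001, and of 0.05 over line means. The 4 samples of a line are separate groups of 6 flies. Their number limits precision. Per the study's methods the arrays were processed in 8 batches of 15 and its models held batch as a blocking factor. The sources used here do not say which array was in which batch, so no fit held it as such, and replicate number was used as a block in an alternative.

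Members and the 32 gene lists were chosen with earlier results of these data known. After values were seen, lists were freed of members that belong to other families (such as cyclophilins among the P450 genes) and the Mst57D genes were moved to the seminal fluid list. Named genes are up to 10 shared differences in each direction, up to 8 for each sex alone and for the departure in each direction, and up to 3 called members of each list. Neighbours of named genes, further called members of a list and the genes given for arrays that did not overlap were chosen after their values were seen. Alternatives were other normalizations, thresholds, weights, a replicate block and samples or lines left out. The fits were tested on simulated data. Python 3.11.15, numpy 2.4.6, pandas 2.3.3 and matplotlib 3.10.9 made tables and figures.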

Additional observations from a re-analysis of the deposited data

Results flagged for a closer look

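Among the genes described, the 4 P07 arrays of a sex formed 78 groups that were examined for a single array far from the other 3, and 3 such arrays were found, where chance gives about 1 in 20 groups. ATbp was at 4.35 in P07 female 2 and at 5.04 or above in the other females of the line. CG14456 was at 6.28 in female 4, with the nearest female of the line at 5.67. Sdic3 was at 9.09 in male 2, with the nearest male at 8.94.

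For 30 named genes the P07 difference in males was not the same as that in females by the interaction term of the limma fit at an FDR of 0.001. The departures that follow are the male minus the female P07 difference on the log2 scale. Those called in males with a lower level were CG14785 (-2.39), CG31872 (-2.27), CG15369 (-1.88), Gas8 (-1.86), CG33259 (-1.70), lncRNA:CR40465 (-1.34), nej (-1.29), CG7330 (-1.26), Obp8a (-1.02), Obp58b (-1.02) and CanA-14F (-0.84). Those called in males with a higher level were CG43085 (1.90), CG11854 (1.59), CG40485 (1.49), CG13309 (1.22), Grik (1.00), Cyp6t1 (0.91), CG14610 (0.80), Glos (0.80), CG11905 (0.74) and CG6738 (0.66). Those called in females were CG7352 (1.25), CG14456 (1.18), GstE6 (0.95), fuss (0.72), GstD1 (0.65) and CG9098 (0.65), which were lower in females, and lov (-1.20), CG13101 (-0.65) and Dbct (-0.35), which were higher. The departure of CG13309 was lost without any 1 of males 1 to 3 or females 3 and 4 (adjusted p from 0.00134 to 0.0241), that of CG7330 without male 1 (adjusted p = 0.00158) and that of lncRNA:CR40465 without male 3 (adjusted p = 0.00276).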

How the results depend on the processing

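No named value changed sign under any alternative run. With an FDR of 0.05, P07 had 1586 calls in males, 660 in females, 136 shared and 734 departures, and with array weights it had 662 in males. Leaving out 1 P07 array or 1 other line gave 241 to 468 calls in males, 52 to 109 in females, 16 to 33 shared and 60 to 128 departures. The same steps gave 2 to 4 transcripts beyond the spread of lines in males, 0 to 9 in females and 1 to 4 for the departure. Beyond the spread, females had 1 with quantile normalization within each sex. With 1 probe set per gene, males had 1 and the departure 0. Without lines H10 and P26, males had 1 and the departure 1. The cause of these changes was not tested. With P07 females 1 and 3 left out, chosen after seeing the data, there were 29 calls in females, 8 shared, 54 departures, and beyond the spread 691 in females and 16 for the departure. That fit set a mean of 2 arrays against means of 4, and 20 of 42 named values in females or of the departure were no longer called. Centring each array or quantile normalization within each sex moved male calls to 432 and 461 and female calls to 97 and 97, with 75 and 65 of the latter lower. Quantile normalization gave 47 larger and 51 smaller departures, against 50 and 46.

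Replicate numbers are shared by lines and sexes, and the 8 batches equal in number the 8 combinations of sex and replicate number, but no source says that a number marks a batch. P07 samples of the same number in the 2 sexes deviated together only weakly (r of 0.039, 0.055, 0.0875 and 0.114). Across lines within a sex, 53 of 60 male and 41 of 60 female arrays correlated best with their own number. With a replicate block there were 561 calls in males, 116 in females, 36 shared and 162 departures, 99 larger and 63 smaller. These held all 431 male calls, 99 of the 100 female calls, the 29 shared calls and the 96 departures, and all 94 named values stayed on their side of the threshold.

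The 4 samples a group limit the precision of each line mean, and a p that missed the threshold does not show that lines were alike. RMA values carry no error for low signals, and transcripts near the bottom of the scale, such as seminal fluid genes in females, cannot show a lower level. The part of array batch in these differences was tested only through the replicate block.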

Other observations

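Of 47 odorant-binding protein genes, whose products carry odorants and other small molecules, 4 were lower in P07 males and none higher, although 27 of the 47 lay above 0 (all transcripts, 1.04% lower and 1.26% higher). Beside Obp8a and Obp56i these were Obp56h, with values of 5.02, 5.20, 4.94 and 5.35 against 4.76 to 7.43 in the other male arrays, and Obp58b, with 3.65, 4.03, 3.53 and 3.95 against 3.75 to 5.92. Their differences were -1.04 ± 0.19 and -0.74 ± 0.14 (adjusted p = 8.42e-05 and 0.00023, limma), and both calls were lost without male 1 (adjusted p = 0.0015 and 0.00423) or male 3 (adjusted p = 0.00214 and 0.00748). Hen1, the methyltransferase that protects piRNAs and siRNAs, was the 1 of 20 genes of piRNA and transposon control called in P07 males. It had 6.80, 6.49, 6.70 and 6.48 against 6.65 to 7.89, the lowest of 15 lines, and differed by -0.51 ± 0.08 (adjusted p = 1.93e-06).

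Of 103 cuticular protein genes 2 were higher in P07 males, a share near the 1.26% of all transcripts. Cpr62Bb had 9.29, 9.12, 9.20 and 9.48 against 7.26 to 9.40 and differed by 0.95 ± 0.09 (adjusted p = 2.79e-11), and Cpr47Ea by 0.43 ± 0.09 (adjusted p = 0.000706), a call lost without any 1 P07 male. Of 47 digestive enzyme genes 32 lay above 0 in males (median 0.11) and 13 in females (median -0.14). Jon44E, a gut protease gene, was higher in males (1.19 ± 0.21, adjusted p = 5.24e-05) but not called without male 2 or 4 (adjusted p = 0.00357 and 0.00203). Of 40 ribosomal protein genes 32 lay above 0 in males, and RpL27 and RpS21 were called with 0.29 and 0.15, each lost in 3 or more of the fits without 1 P07 male. None of 20 yolk and eggshell genes was called in either sex, with 16 above 0 in P07 males (median 0.14) and 4 above 0 in P07 females (median -0.21). On the main probe set of each gene, none of 75 genes of the respiratory chain and ATP synthase, 21 genes of antimicrobial peptides and bomanins or 165 chemoreceptor genes was called in either sex. Of all transcripts 2.3% were called in males and 0.533% in females, and lists of 20 or 21 genes hold few or no calls at such shares. A further probe set of ND-ACP was higher in both sexes, with 0.31 and 0.35, and ATPsynbetaL had a called departure of -0.68 (adjusted p = 0.000221).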
